A study of Rattus norvegicus with 63 samples.

Results

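The livers of 3 male Wistar Hanover rats that had received ethionine (ETH) by gastric gavage at 200 mg/kg per day for 14 days were compared with those of vehicle-treated rats. The ETH animals were chosen by their labels, which also assign them to control set 5. That set holds 3 of the 12 methylcellulose (MC) animals of the series, all labelled 14 days, and the series holds 63 animals in all. Each liver was measured for 158 analytes, of which 104 were proteins without a named modification and 54 were modified forms, mostly phosphorylated. The rats were 8 to 10 weeks old and had been assigned to dose groups of 5, from which 3 were profiled. The study's methods state that treated rats with some histopathological change in the liver were preferred, so the group describes selected animals. The remaining MC animals form sets 1, 2 and 6 with 3 rats each, numbered 4 to 6, 10 to 12 and 1 to 3, and set 5 is numbered 7 to 9.

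Ethionine is the ethyl analogue of the amino acid methionine. The liver converts it to S-adenosylethionine, which ties up adenosine and lowers hepatic ATP, donates ethyl in place of methyl groups, and is accompanied by reduced protein synthesis. It causes fatty change in the rat liver and, with long feeding, liver tumours without being a classical mutagen, and the study counts it among its non-genotoxic carcinogens. The measurements came from reverse-phase protein arrays, on which each lysate is spotted and every array is probed with an antibody against 1 protein or 1 modified form. The deposited value is a relative fluorescence intensity (RFI) on a linear scale. RFI compares animals for the same antibody and not 1 protein with another.

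The 6 animals were of similar overall brightness. The median RFI over analytes was 0.612, 0.515 and 0.641 in ETH animals 1 to 3 and 0.555, 0.583 and 0.533 in set 5. A value at or below 0, which has no logarithm, occurred for 1 analyte in 1 of the 6 animals, ACTB in ETH animal 3. Of 101 gene symbols on the array, 92 match a rat RefSeq symbol, and the other 9 are histone and cytochrome P450 names of human type, among them CYP3A4, CYP2B6 and CYP2C8, so the rat enzyme that those antibodies detect was not determined. The measured hepatocyte markers comprised 12 analytes, while none of the listed markers of bile duct and oval cells, of blood and immune cells, or of stellate, fibroblast and endothelial cells was on the array. The summed RFI of the hepatocyte markers was 44.8 to 91.5 in ETH, 98.6 to 171 in set 5 and 89.2 to 192 over the 12 MC animals, and it is made up mostly of the bright CYP2B6_3 signal. The sum therefore does not describe the markers as a set. Their median log2 fold change was -0.02 against set 5 and -0.07 against all MC. Against set 5, 4 of the 12 analytes lay above 0 and 8 below. The part of cell composition in the results was not tested, and in a lysate of whole liver fewer cells of a type cannot be told apart from less protein per cell.

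Against control set 5, ETH livers had more CYP3A4_2, a drug-metabolising cytochrome P450 signal, and less doubly phosphorylated MAPK3 (ERK1), the active form of a kinase of the ERK growth cascade. These 2 analytes were the ones called among 158 (1.27%) at an adjusted p below 0.05, and 15 analytes (9.49%) had an unadjusted p below 0.05. Against the mean of all 4 MC sets, 9 of 158 analytes (5.7%) were called, and 17 (10.8%) had an unadjusted p below 0.05. Of those 9, 5 rose (among them CYP3A4_2, MCL1, EIF2A and BAX) and 4 fell (CDKN1B phosphorylated at S10, phosphorylated MAPK3, CYP2C8 and CYP2B6_3). Both comparisons use the same ETH animals, and set 5 is part of the second reference. The median log2 fold change of all analytes was 0.01 against set 5 and -0.03 against the 4 sets.

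**Figure D1:**
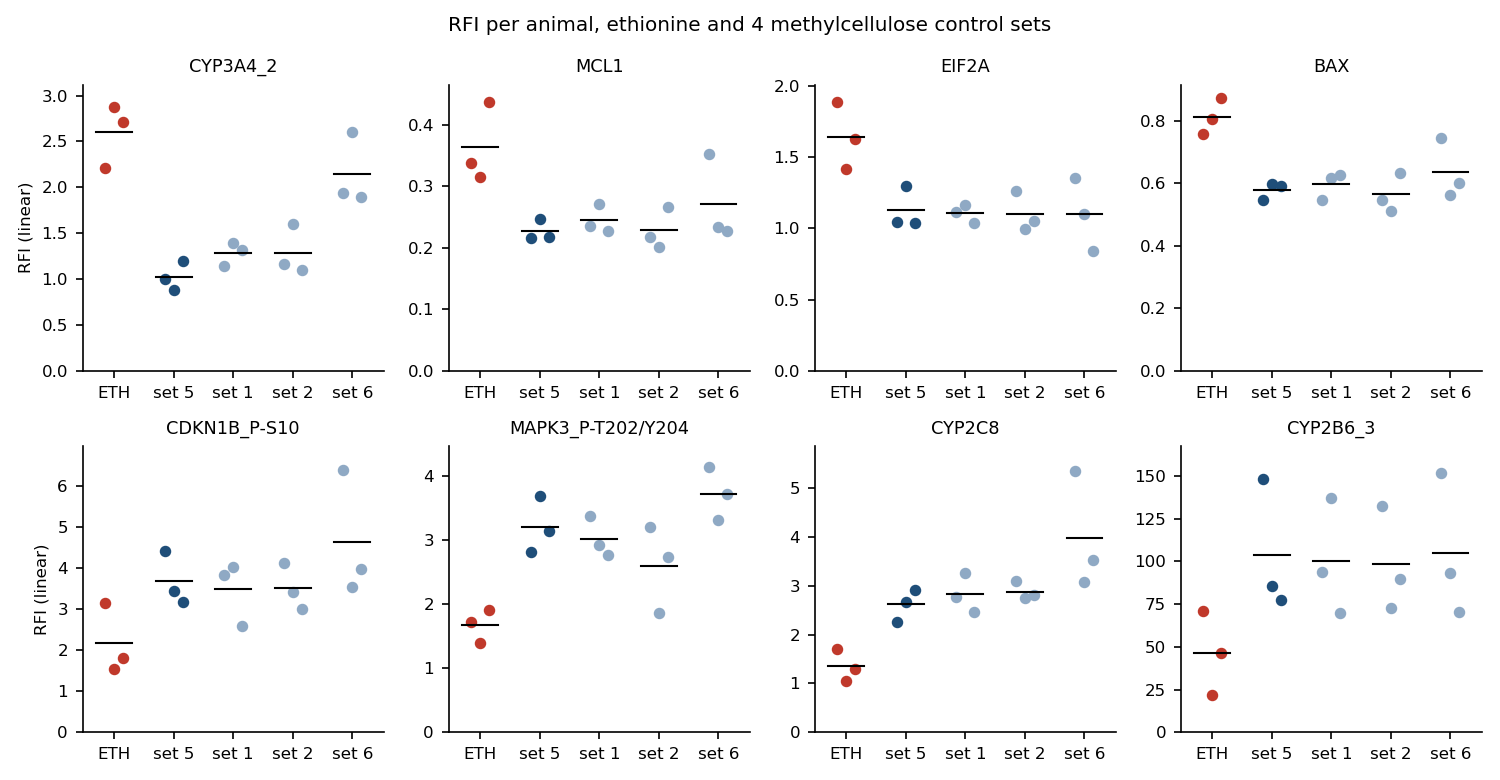
RFI on a linear axis for 8 of the 9 analytes called against all MC sets, with 1 point per animal for ETH (red), control set 5 (dark blue) and control sets 1, 2 and 6 (light blue), and a line at each group's mean of 3 animals. The 3 ETH animals lie above all 12 controls for EIF2A and BAX and below all 12 for CYP2C8.

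Cytochrome P450 enzymes oxidise drugs, steroids and other lipophilic compounds in the hepatocyte, and their amounts follow nuclear receptors that sense such compounds. The list held 13 analytes of 7 enzymes. Against set 5, 1 of them rose and none fell, where 1.27% of all analytes were called, and against all MC 1 rose and 2 fell, where 5.7% were called. The list's median log2 fold change was -0.02 against set 5 and -0.06 against all MC, beside 0.01 and -0.03 over all analytes.

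CYP3A4_2 had an RFI of 2.21, 2.88 and 2.71 in ETH animals 1 to 3 and of 0.999, 0.881 and 1.20 in set 5. All ETH animals were above all animals of their set. The rise was 2.54-fold (log2 fold change 1.34, SE 0.32, adjusted p = 0.0189), and against all MC it was 1.89-fold (log2 fold change 0.92, SE 0.25, adjusted p = 0.0260). The control sets differed for this analyte, with a mean RFI of 1.03 in set 5, 1.28 in set 1, 1.29 in set 2 and 2.15 in set 6. Against set 1 alone the log2 fold change was 1.01 and against set 2 alone 1.03, which were not called (adjusted p = 0.184 and 0.214), and against set 6 alone it was 0.28 (adjusted p = 0.812). The 12 MC animals, from 0.881 to 2.60 with a median of 1.26, overlapped ETH. The other antibody of that name, CYP3A4_1, gave 5.87, 6.67 and 6.46 in ETH and 7.48, 6.07 and 7.10 in set 5, a log2 fold change of -0.12 with a 95% confidence interval from -0.62 to 0.38. The antibodies thus differed in what they reported, and which forms they bind was not determined.

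CYP2C8, named for an enzyme that hydroxylates arachidonic acid and several drugs, had an RFI of 1.70, 1.05 and 1.29 in ETH and of 2.26, 2.67 and 2.91 in set 5. Over the 12 MC animals it ran from 2.26 to 5.34 with a median of 2.86, so every ETH animal was below every control. The fall was 2.27-fold against all MC (log2 fold change -1.18, SE 0.33, adjusted p = 0.0260). Against set 5 alone the log2 fold change was -0.97 (adjusted p = 0.233, SE 0.41), which was not called.

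CYP2B6_3, which carries the name of a barbiturate-inducible enzyme, had an RFI of 70.7, 21.9 and 46.3 in ETH and of 148, 85.4 and 77.5 in set 5. The MC animals ran from 69.8 to 152 with a median of 91.6, and ETH animal 1 reached the lowest control. It fell 2.35-fold against all MC (log2 fold change -1.23, SE 0.39, adjusted p = 0.0441), and against set 5 the log2 fold change was -1.26 (adjusted p = 0.220, SE 0.49). CYP2B6_1 and CYP2B6_2, whose antibodies share the name, had log2 fold changes of -0.07 and -0.06 against all MC. The CYP1A1 and CYP1A2 analytes lay between -0.16 and 0.07, and CYP2E1_1 and CYP2E1_2 were at 0.30 and 0.50, none of them called. POR and CYB5A, which pass electrons to the P450s, had log2 fold changes of -0.13 and -0.06.

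The ERK cascade carries signals of growth factor receptors through RAF and MEK (MAP2K1, MAP2K2) to kinases such as ERK1 (MAPK3), which phosphorylates ribosomal S6 kinases such as RPS6KA1. Dual phosphorylation at T202 and Y204 marks active ERK1. Of 15 analytes in the list, 1 fell and none rose in either comparison, beside 1.27% of all analytes called against set 5 and 5.7% against all MC. The list's medians were 0.01 and -0.05.

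MAPK3_P-T202/Y204 had an RFI of 1.72, 1.40 and 1.91 in ETH and of 2.82, 3.69 and 3.15 in set 5, with no overlap. The fall was 1.92-fold against set 5 (log2 fold change -0.94, SE 0.24, adjusted p = 0.0236) and 1.86-fold against all MC (log2 fold change -0.89, SE 0.19, adjusted p = 0.00392). It was negative against each control set, at -0.86 for set 1, -0.61 for set 2 and -1.16 for set 6, and the last was called (adjusted p = 0.00259). The 12 MC animals ran from 1.87 to 4.15 with a median of 3.18. A single ETH animal, the third, lay within their range, just above the dimmest animal of set 2.

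Total MAPK3 was not called. Its RFI was 1.19, 1.17 and 1.37 in ETH and 0.967, 1.22 and 1.10 in set 5, a log2 fold change of 0.19 with a 95% confidence interval from -0.35 to 0.72. The log2 ratio of phosphorylated to total MAPK3 was 0.53, 0.25 and 0.48 in ETH and 0.80 to 1.63 over the 12 MC animals with a median of 1.50, so all ETH animals were lower. Of 48 such ratios, those of GSK3B_P-S9 and EIF2A_P-S51 were likewise below all 12 MC animals. That of RPS6KB1_P-T389 was above them, at 1.05, 1.05 and 0.86 in ETH against at most 0.76. The MAPK3 ratio differed by -1.13 from set 5 (adjusted p = 0.146, SE 0.39) and by -0.94 from all MC (adjusted p = 0.0880, SE 0.31), which did not pass the threshold.

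The neighbours of ERK were measured too. Phosphorylated MAP2K1, the kinase directly above ERK, had log2 fold changes of -0.03 against set 5 and -0.05 against all MC. RPS6KA1_P-T573, a site that ERK phosphorylates, had an RFI of 2.25, 1.29 and 1.54 in ETH and of 3.01, 2.84 and 2.03 in set 5, with overlapping groups. Its log2 fold change was -0.65 (adjusted p = 0.225, SE 0.26) against set 5 and -0.48 (adjusted p = 0.264, SE 0.21) against all MC, not called. DUSP4, a phosphatase that removes phosphate from ERK, read 0.405, 0.241 and 0.308 in ETH and 0.156, 0.212 and 0.225 in set 5. All ETH animals were above set 5, at a log2 fold change of 0.67 (adjusted p = 0.220, SE 0.25), and against all MC it was 0.61 (adjusted p = 0.0583, SE 0.20). In the deposited series matrix, DUSP4 was the 1 analyte called among 158 (0.633%) between the ETH and set 5 columns, with a log2 difference of 1.13. The ETH columns there lay closest to ratios to set 2, so that difference is not one from set 5 alone.

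**Figure D2:**
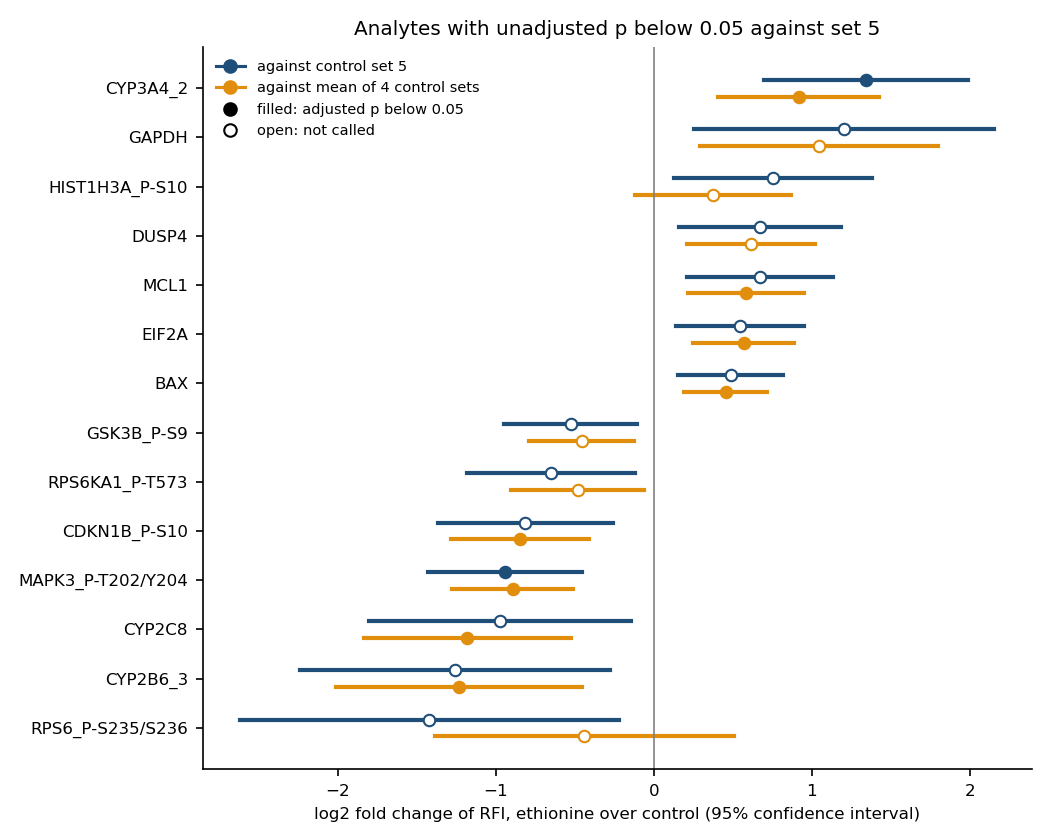
Log2 fold change of RFI with its 95% confidence interval for 14 of the 15 analytes with an unadjusted p below 0.05 against set 5, against control set 5 (blue) and against the mean of the 4 MC sets (orange), with filled points at an adjusted p below 0.05. Blue points are filled for CYP3A4_2 and MAPK3_P-T202/Y204, orange points for 8 analytes, and the RPS6_P-S235/S236 and HIST1H3A_P-S10 intervals against all sets include 0.

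Cell cycle regulators were represented by 15 analytes. CDKN1B (p27) is an inhibitor of cyclin-dependent kinases, and phosphorylation at S10 influences its stability and its export from the nucleus. CDKN1B_P-S10 had an RFI of 3.15, 1.55 and 1.82 in ETH and of 4.42, 3.43 and 3.18 in set 5. Each ETH animal was below the set, but animal 1 was close to its lowest animal, and the 12 MC animals ran from 2.59 to 6.40 with a median of 3.69. The fall was 1.80-fold against all MC (log2 fold change -0.85, SE 0.22, adjusted p = 0.0229), and against set 5 the log2 fold change was -0.81 (adjusted p = 0.174, SE 0.27).

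The remaining CDKN1B analytes were not called. Total CDKN1B had log2 fold changes of 0.03 against set 5 (interval from -0.36 to 0.42) and 0.04 against all MC, and CDKN1B_P-T187 was at -0.08 and -0.14. The ratio of the S10 form to total CDKN1B differed by -0.89 from all MC (adjusted p = 0.0185, SE 0.23), the 1 ratio called among 48 (2.08%). Total CDKN1B is among the 16 dimmest analytes, with a mean log2 RFI of -3.12 in ETH and -3.15 in set 5, so the ratio rests on a weak signal. In the series matrix, whose ETH columns lay closest to ratios to set 2, the row named CDKN1B_P-S10 differed by 0.47 on the log2 scale between the ETH and set 5 columns and the row named CDKN1B by -0.86. Over the 45 treated animals the deviations of CDKN1B_P-S10 from their group means had a Spearman correlation of 0.369 with the matrix row of that name and of 0.833 with the matrix row CDKN1B. Over all 158 analytes the median correlation between rows of the same name was 0.555, and 65 were below 0.5. Among described analytes it was 0.0104 for CDKN1B, 0.0527 for PRKACA_P-T197, 0.0762 for NFKBIA and 0.380 for BAX, but 0.808 for CYP3A4_2, 0.865 for CYP2C8 and 0.950 for CYP2B6_3. Why the deposits differ, and whether the S10 name is right, was not determined.

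No other cell cycle analyte was called. CDC25C, a phosphatase that starts mitosis, read 1.43, 1.02 and 1.27 in ETH and 0.837, 0.892 and 0.895 in set 5, a log2 fold change of 0.49 (adjusted p = 0.584, SE 0.26). MKI67, a proliferation marker, was at 0.03 with an interval from -0.48 to 0.55, and CCND1 was at 0.26 with an interval from -0.29 to 0.82. The list's median was 0.03 against set 5 and -0.01 against all MC.

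Of the 4 analytes in the list of apoptosis regulators, 2 rose against all MC, where 5.7% of all analytes were called. BAX opens the outer mitochondrial membrane and promotes apoptosis, whereas MCL1, of the same BCL2 family, opposes it. BAX had an RFI of 0.756, 0.804 and 0.872 in ETH, 0.547, 0.596 and 0.592 in set 5 and 0.512 to 0.745 over all 12 MC animals with a median of 0.594. Every ETH animal was above every control, and the rise was 1.37-fold against all MC (log2 fold change 0.45, SE 0.13, adjusted p = 0.0271).

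MCL1 read 0.338, 0.316 and 0.437 in ETH and 0.216, 0.248 and 0.217 in set 5, without overlap, and 1 control of set 6 reached 0.353. The rise was 1.50-fold against all MC (log2 fold change 0.58, SE 0.18, adjusted p = 0.0441). Against set 5 alone neither was called, with log2 fold changes of 0.49 (SE 0.17) for BAX and 0.67 (SE 0.23) for MCL1 and an adjusted p of 0.174 for both. BCL2L1 and AVEN, which also restrain apoptosis, had log2 fold changes of -0.06 and -0.16 against all MC. BIK, a promoter of apoptosis that is not in the list and was chosen after its values were seen, was at -0.07.

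In the JAK-STAT pathway, STAT3, which mediates the acute-phase response, read 2.26, 2.24 and 2.23 in ETH and 1.84, 1.80 and 1.46 in set 5, a log2 fold change of 0.41 (adjusted p = 0.594, SE 0.22). Against all MC it was 0.25 (adjusted p = 0.851). Its S727 and Y705 forms were at -0.13 and 0.12 against set 5. The list's highest log2 fold change was that of STAT5A_P-Y694, at 0.70 against set 5 (adjusted p = 0.933, SE 0.53) and 0.88 against all MC. It was not called in either comparison, and was chosen after its values were seen.

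EIF2A, an initiation factor of protein synthesis by its deposited name, read 1.88, 1.42 and 1.63 in ETH and 1.05, 1.30 and 1.04 in set 5. All ETH animals exceeded the highest of the 12 MC animals, at 1.35. The rise was 1.48-fold against all MC (log2 fold change 0.57, SE 0.16, adjusted p = 0.0260), and against set 5 the log2 fold change was 0.54 (adjusted p = 0.219, SE 0.20). The analyte deposited as EIF2A_P-S51 had a log2 fold change of 0.14 against all MC with an interval from -0.22 to 0.50. The S51 site through which stress kinases slow initiation belongs to the alpha subunit of eIF2 (EIF2S1), another gene than EIF2A. Which of these proteins the antibodies named EIF2A detect was not determined. The log2 ratio of the S51 analyte to the EIF2A analyte was -3.60, -3.25 and -3.44 in ETH, below the lowest MC animal at -3.23. Its difference from all MC was not called (-0.43, adjusted p = 0.128, SE 0.19). EIF2AK3 (PERK), the stress kinase of the endoplasmic reticulum, was at -0.07.

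AKT, MTOR and the S6 kinases couple nutrients and insulin to protein synthesis. Of 15 analytes none was called, and the list's median was 0.03 against set 5 and -0.11 against all MC. Phosphorylated ribosomal protein S6 (RPS6_P-S235/S236) had the lowest log2 fold change of the list against set 5, with an RFI of 3.08, 5.48 and 4.03 in ETH and of 12.7, 8.16 and 12.6 in set 5. The groups did not overlap, at a log2 fold change of -1.42 (adjusted p = 0.233, SE 0.59). The direction was the same against set 1 and set 2, at -0.70 and -0.91, and turned against set 6. Set 6 had 0.945 to 3.66, below 2 of the 3 ETH animals, and against it the log2 fold change was 1.26, while the difference from all MC was -0.44 with an interval from -1.39 to 0.50.

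GSK3B_P-S9, the inactive form of a kinase that AKT restrains, read 0.224, 0.158 and 0.167 in ETH and 0.266, 0.293 and 0.226 in set 5. All ETH animals were below set 5, with a log2 fold change of -0.53 (adjusted p = 0.223, SE 0.21), and against all MC it was -0.46 (adjusted p = 0.0935, SE 0.17). Its log2 ratio to total GSK3B was -1.97, -1.86 and -1.79 in ETH, below the lowest MC animal at -1.78, but the ratio's difference from all MC was not called (-0.34, SE 0.12, adjusted p = 0.110).

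AMPK senses low ATP and is activated by phosphorylation of its catalytic subunit at T172. PRKAA1_P-T172 read 2.27, 2.08 and 2.06 in ETH and 1.26, 2.22 and 2.07 in set 5, a log2 fold change of 0.25 with an interval from -0.24 to 0.75. PRKAA1 itself was at -0.19, with an interval from -0.64 to 0.27. Their ratio differed by 0.44 from set 5 (adjusted p = 0.319, SE 0.23) and by 0.42 from all MC (adjusted p = 0.128, SE 0.18), and neither was called.

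Among 11 histone and chromatin analytes none was called. HIST1H3A_P-S10, a mark of mitotic chromatin and of immediate-early genes, read 0.0892, 0.111 and 0.148 in ETH and 0.0658, 0.0526 and 0.0881 in set 5. ETH lay above set 5 by a log2 fold change of 0.75 (adjusted p = 0.231, SE 0.31), but within the range of all controls, whose highest was 0.137, in 2 of 3 animals. The analyte is among the 16 dimmest, so this difference rests on a weak signal. Histone methylation draws on S-adenosylmethionine. Dimethylated K4 of histone H3 was at 0.30 (interval from -0.08 to 0.68) and trimethylated K27 at 0.24 (interval from -0.31 to 0.80) against set 5, and at 0.11 and 0.13 against all MC.

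**Figure D3:**
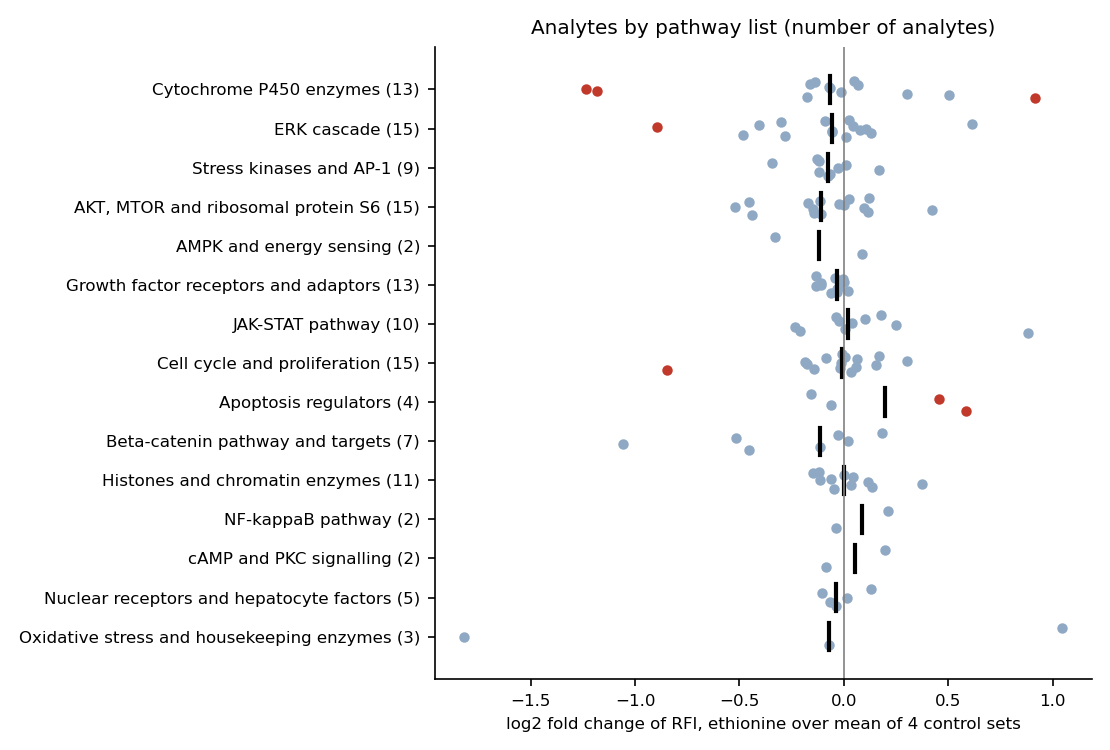
Log2 fold change of RFI in ETH over the mean of 4 MC sets for the analytes of each pathway list, 1 point per analyte, red where called, with a black line at the list's median. Medians lie between -0.12 and 0.20, and the 7 red points belong to the cytochrome P450, ERK, cell cycle and apoptosis lists, while EIF2A is in no list.

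The study names GLUL, JUN, CDKN1B and CYP2C8 among its proteins of interest, and that choice was made on these animals, so it is not independent evidence of direction. The list had 6 analytes, of which 2 fell against all MC and none was called against set 5, beside 5.7% and 1.27% of all analytes. GLUL (glutamine synthetase), which in liver marks hepatocytes around the central vein and is a target of beta-catenin, read 0.462, 0.287 and 0.794 in ETH and 1.29, 1.54 and 0.849 in set 5. ETH was below set 5 in all animals, but the spread was wide, with a log2 fold change of -1.33 (adjusted p = 0.606, SE 0.73). Over the 12 MC animals GLUL ran from -1.34 to 1.74, and 2 of them were at or below 0 and left out of the fit. JUN, a part of the AP-1 transcription factor, read 0.217, 0.205 and 0.238 in ETH and 0.262, 0.241 and 0.210 in set 5, a log2 fold change of -0.11 with an interval from -0.57 to 0.36.

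The remaining lists held no called analyte in either comparison. They were the 9 stress kinase and AP-1 analytes, 13 growth factor receptors and adaptors, 2 of NFKBIA, 2 of cAMP signalling, 5 nuclear receptors and hepatocyte factors and 7 of the beta-catenin pathway. Each list's median log2 fold change was between -0.18 and 0.08 against set 5. The lowest p in the stress kinase list was that of MAPK14 (p38), at 0.32 with an interval from -0.05 to 0.69, followed by phosphorylated MAPK8 (JNK) at -0.31. HNF4A, a master regulator of hepatocyte genes, was at 0.30 against set 5 and 0.13 against all MC, and PPARA_1 was at -0.09. PTK2_P-Y576/Y577 was at -0.18, IGF1R at 0.16, NFKBIA at 0.20, its S32 form at -0.04, CREB1 at 0.16 and PRKACA_P-T197 at -0.02.

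Proteins often used as loading references varied. GAPDH, a glycolytic enzyme, read 0.342, 0.324 and 0.766 in ETH and 0.343, 0.0943 and 0.214 in set 5, a log2 fold change of 1.21 (adjusted p = 0.220, SE 0.47) with overlapping groups. ACTB read 0.0941, 0.973 and -0.0982 in ETH and 1.22, 3.27 and 0.642 in set 5. The value at or below 0 was left out, and the log2 fold change over the remaining animals was -2.18 (adjusted p = 0.720, SE 1.31).

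Because the set labels of some controls differ between the deposits, the choice of reference was examined. Between set 5 and the mean of the other 3 MC sets, 0 of 158 analytes (0.0%) were called in limma, and 2 had an unadjusted p below 0.05, CYP3A4_2 and RPS6_P-S235/S236. Set 5 read lower than the others for CYP3A4_2 (log2 difference -0.57, SE 0.26) and higher for RPS6_P-S235/S236 (log2 difference 1.30, SE 0.49), both with an adjusted p of 0.992. Of the 6 pairs of MC sets, 1 gave a call, RPS6_P-S235/S236 between sets 5 and 6. The matrix columns of ETH fitted ratios to the median of set 2 most closely, with 78, 66 and 68 analytes within 0.05 of the column's own offset in animals 1 to 3, against 25 to 41 for sets 1, 5 and 6.

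With set 1 or set 2 in place of set 5, 0 of 158 analytes (0.0%) were called, with 16 and 12 at an unadjusted p below 0.05. With set 6, 3 (1.9%) were called, and all fell, namely MAPK3_P-T202/Y204, CDKN1B_P-S10 and CYP2C8. After centring each animal on its median, 5 (3.16%) were called against set 5, CYP3A4_2 and MCL1 as rises and MAPK3_P-T202/Y204, CDKN1B_P-S10 and GSK3B_P-S9 as falls. The 3 ETH animals were above all animals of set 5 for 14 analytes (8.86%) and below for 9 (5.7%). They were above all 12 MC animals for 3 analytes (1.9%), among them EIF2A and BAX, and below for 1 (0.633%), CYP2C8.

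**Figure D4:**
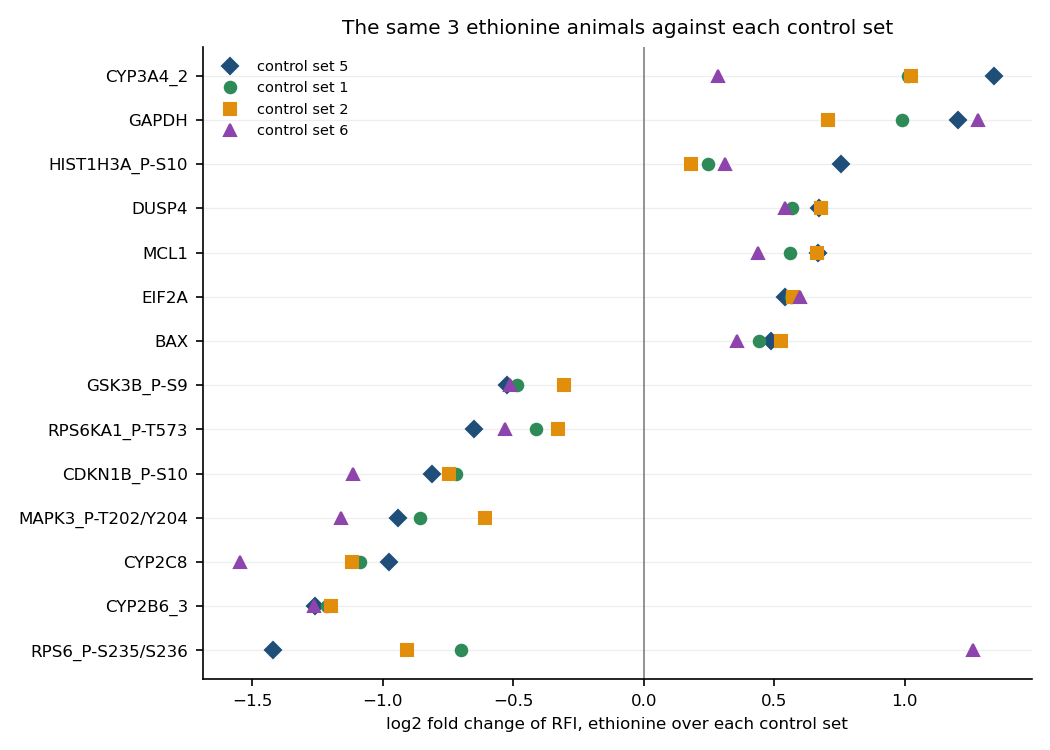
Log2 fold change of RFI of the same 3 ETH animals over each MC control set for 14 analytes, with a symbol per set. EIF2A, BAX and CYP2B6_3 differed little between references, CYP3A4_2 ran from 0.28 for set 6 to 1.34 for set 5, and RPS6_P-S235/S236 ran from -1.42 for set 5 to 1.26 for set 6.

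Calls against set 5 rested on few animals. Leaving out ETH animal 2 or 3 or control animal 8 left 0 calls in limma, with 14, 13 and 12 analytes at an unadjusted p below 0.05, and leaving out control animal 9 left CYP3A4_2 alone. Against all MC, 5 analytes were called without ETH animal 1, 0 without animal 2 (14 at an unadjusted p below 0.05) and 1, MAPK3_P-T202/Y204, without animal 3.

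The ETH animals also differed among themselves. The median standard deviation of log2 RFI was 0.197 in ETH and 0.187 in set 5, and for 14 of the 157 analytes with 3 positive values the highest ETH animal was at least 2 times the lowest. The widest such ratio was 3.55, for CDH2 (N-cadherin), which read 13.9, 6.36 and 3.93 and was chosen after its values were seen. CCNA2, a cyclin of S phase, also chosen so, read 5.79, 1.75 and 2.63, with animal 1 the highest. For CYP2B6_3 and CDKN1B_P-S10 animal 1 was nearest to the controls, and for EIF2A it was the farthest from them.

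ETH was also compared directly with other treated groups of 3 animals each, which share the ETH animals. Cefuroxime (CFX, 250 mg/kg per day), an antibiotic, and nifedipine (Nif, 3 mg/kg per day), a calcium channel blocker, are the study's non-carcinogens and were given for 14 days. Acetamide (AA, 3000 mg/kg per day) and methylcarbamate (Mcarb, 400 mg/kg per day) are carcinogens of the same class as ETH with the same dosing time. Phenobarbital and dehydroepiandrosterone, also of that class and dosing time, were not compared with ETH. Diethylstilbestrol (DES, 10 mg/kg per day) and piperonylbutoxide (PBO, 1200 mg/kg per day) carry the same control set as ETH but were given for 3 days. The study's methods give carboxymethyl cellulose (CMC) as the vehicle of all these compounds. Its overview of compounds lists MC for ETH, AA, Mcarb and DES but CMC for CFX, Nif and PBO. Compound, dose, time, control set and possibly vehicle differ together between some of these groups and cannot be told apart.

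Against the mean of CFX and Nif, 7 of 158 analytes (4.43%) were called, and all were among the 9 called against all MC. MAPK3_P-T202/Y204 read 3.40, 2.99 and 5.26 in CFX and 3.07, 3.51 and 4.68 in Nif, all above the ETH animals, and was 2.24-fold lower in ETH (log2 difference -1.16, SE 0.21, adjusted p = 0.000192). CYP3A4_2 was 2.35-fold higher in ETH (log2 difference 1.23, SE 0.28, adjusted p = 0.00420). CYP2C8 was 2.29-fold lower, and EIF2A, BAX and MCL1 were higher by log2 differences of 0.65, 0.49 and 0.66. When animals of equal number were treated as a replicate block in a fit of these 9 animals, the count was 11, which held the same 7 and added CYP2B6_3, CTNNB1_P-T41/S45, ACTB and STAT5A_P-Y694.

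Against the mean of AA and Mcarb, no analyte was called in limma (0.0%), with 11 at an unadjusted p below 0.05. The log2 difference of CDKN1B_P-S10 was 0.02 with an interval from -0.46 to 0.50. CYP3A4_2 was higher in ETH by 0.87 (adjusted p = 0.484, SE 0.28) and MAPK3_P-T202/Y204 lower by a log2 difference of -0.47 (adjusted p = 0.658, SE 0.21), neither of which passed the threshold. CYP2C8 and CYP2B6_3 were at -0.38 and -0.45 (adjusted p = 0.998 for both). CYP2C8 ran from 1.11 to 2.31 in AA and from 1.45 to 2.50 in Mcarb, overlapping ETH. EIF2A, MCL1 and BAX were at 0.46, 0.46 and 0.35 (adjusted p = 0.658 for each).

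Against the mean of DES and PBO, 6 of 158 analytes (3.8%) were called. Of these, 5 were cytochrome P450 analytes lower in ETH, namely CYP3A4_2, CYP2B6_3, CYP2C8 and, chosen after their values were seen, CYP2B6_1 and CYP1A2_1, with log2 differences from -2.08 to -1.07. The groups behind that mean were unlike each other for CYP3A4_2, which read 1.22, 1.51 and 1.09 in DES and 38.8, 40.0 and 35.6 in PBO, a known inducer of P450 enzymes. ETH was thus above DES and below PBO for that analyte. MAPK3_P-T202/Y204 was not called in this comparison, at a log2 difference of -0.26 (adjusted p = 0.526). It read 2.12, 2.19 and 2.57 in DES and 2.00, 2.02 and 1.31 in PBO, and the PBO animals overlapped ETH.

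**Figure D5:**
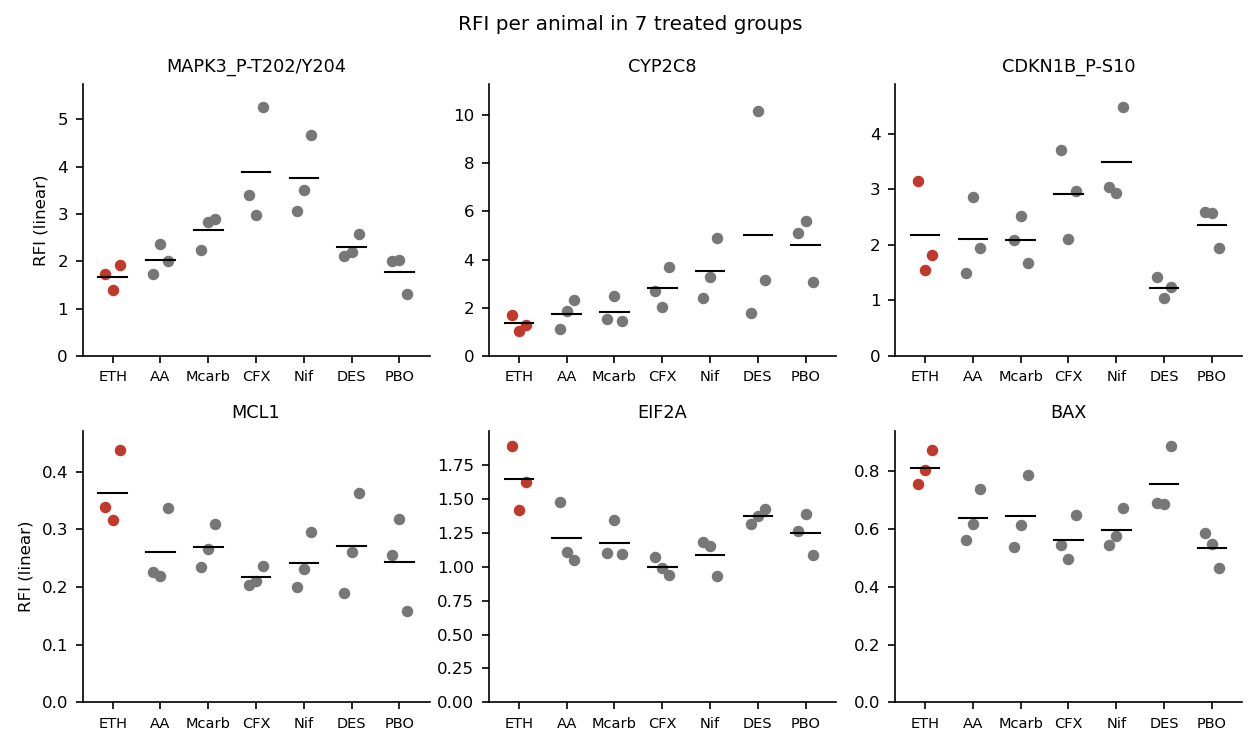
RFI on a linear axis in the 3 animals of ETH (red) and of acetamide (AA), methylcarbamate (Mcarb), cefuroxime (CFX), nifedipine (Nif), diethylstilbestrol (DES) and piperonylbutoxide (PBO) (grey) for 6 analytes, with lines at group means. Phosphorylated MAPK3 in ETH lies below all CFX and Nif animals, EIF2A and MCL1 in ETH lie above all of them, and CYP2C8 ranges widely in DES.

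The modified-to-total ratios were compared for the 48 modified analytes that have a total protein on the array. Against set 5, 0 (0.0%) were called in limma and 4 had an unadjusted p below 0.05. Those 4 were lower in ETH, namely phosphorylated MAPK3, CDKN1B_P-S10, RPS6KA1_P-T573 and GSK3B_P-S9, at -1.13, -0.84, -0.77 and -0.35.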

How the data were processed

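Frozen liver lysates were measured on ZeptoMARK reverse-phase protein arrays. The authors deposited for each of 63 animals the RFI, a fluorescence intensity on a linear scale, which per the study's methods was corrected for local background, normalised for the array and combined from replicate spots by a weighted mean, and a series matrix of log2 values relative to the median control signal with imputed missing values. The matrix columns of ETH lay closest to ratios to set 2, so its values change the reference as well as the deposit. Such values carry no read depth, so the number of animals limits the precision. Values at or below 0 (25 of 9954) were set to missing and the rest log2 transformed. Group means of all 21 groups were fitted together with limma 3.58.1 (lmFit, eBayes, R 4.3.3). The fit was also run on simulated data with independent noise per analyte and animal and no missing values. That run does not cover deviations shared between animals. P-values are two-sided, Benjamini-Hochberg adjusted over 158 analytes or 48 ratios, and called below 0.05. The reference "all MC" is the mean of 4 set means. Nothing states that arrays or lysates were processed separately. The p-values of the main fit rest on the spread between animals within groups, pooled over all 21 groups, and treat animals as independent.

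Members, lists, comparisons and the rule for named analytes were chosen with earlier results of these data known. The rule takes analytes called against set 5 (also after centring or in the matrix) or all MC, the 10 largest rises and falls at an unadjusted p below 0.05, all forms of GLUL, JUN, CDKN1B and CYP2C8, and the 2 lowest p-values of each list, 37 in all, of which 34 are described. Some analytes are counted in the totals but otherwise not reported here, and are left out of the lists and figures.

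Same-numbered animals of ETH, CFX and Nif deviated together from their group means (Pearson correlations over analytes from 0.207 to 0.552 in 6 pairs), which pairs them by the data and not by the labels, so the replicate block is given for that comparison. Alternatives were another scaling, treatment of missing values (5 nearest neighbours, scikit-learn 1.9.0), fit, reference, dim-analyte filter (16 analytes), the matrix and leaving out animals.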

Additional observations from a re-analysis of the deposited data

How the results depend on the processing

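With 3 animals a group, the calls depended on single animals and on the reference set. Against set 5 the count of calls was 2, with 5 after centring, 1 between the same columns of the series matrix (DUSP4, neither of the 2), 0 against set 1 or set 2, and 0 to 3 when an animal was left out. Against all MC it was 9, with 15 after centring, which held the same 9, and 0 to 5 when an ETH animal was left out. Against CFX and Nif it was 7, with 4 when only those groups entered the fit, 11 with the replicate block and 2 to 3 when an ETH animal was left out. Against AA and Mcarb it was 0, with 1 in the matrix, and against DES and PBO 6, with 15 after centring, 3 when only those groups entered the fit, 10 in the matrix and 5 to 6 when an ETH animal was left out. Among ratios, set 5 gave 0, with 1 when only those groups entered the fit and 2 against set 6, and all MC gave 1, with 7 when only those groups entered the fit, 0 without dim analytes, 2 in the matrix and 0 to 1 when an ETH animal was left out. The dim-analyte filter drops every ratio with a dim total, among them that of CDKN1B_P-S10, so it did not retest the called ratio. The replicate block left 0 calls against AA and Mcarb and 5 against DES and PBO. Correlations of same-numbered pairs there were mixed for AA and Mcarb, from -0.52 to 0.302, and from -0.343 to 0.0621 for DES and PBO. Over all 3 comparisons, CFX and Nif included, 9 of 18 same-numbered pairs correlated above 0.1. No paired analysis was possible against set 5, which shares no number with ETH. The causes were not tested. The other settings kept each count within 1.5 times.

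Log2 fold changes against set 5 turned in sign for analytes that were not called. In the matrix, whose ETH columns lay closest to ratios to set 2 so that the reference changes too, these were CDKN1B_P-S10 (0.47), GLUL (0.070), PRKAA1_P-T172 (-0.061), IGF1R (-0.012), NFKBIA_P-S32 (0.050) and CDKN1B (-0.86). CDKN1B_P-S10, called against all MC, was positive there too (0.84). Against set 6 they were RPS6_P-S235/S236 (1.26), HNF4A (-0.061), HIST1H3A_DM-K4 (-0.064), PRKAA1_P-T172 (-0.043) and IGF1R (-0.14), against set 2 PRKAA1_P-T172 (-0.0039), NFKBIA_P-S32 (0.0079) and PRKACA_P-T197 (0.032), and after centring CDKN1B (-0.049). With single animals left out, PRKAA1_P-T172 ran from -0.0070 to 0.403, CDKN1B_P-T187 from -0.161 to 0.020, NFKBIA_P-S32 from -0.143 to 0.028, PRKACA_P-T197 from -0.088 to 0.091 and CDKN1B from -0.101 to 0.151.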
